A study of Bos taurus and Sus scrofa with 6 samples.

Results

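Collagen genes were followed across the cell types of the prepubertal testis of cattle and pigs. The members were all genes whose whole symbol reads COL, digits, A, digits, which gave 40 of the 19994 genes of the cattle table, 33 of the 22694 genes of the pig table and 32 symbols in both. COL4A1, COL4A3, COL4A6, COL6A1, COL9A1, COL9A3, COL23A1 and COL25A1 were found by symbol in cattle alone and COL6A5 in pig alone, and a gene listed without its symbol was not counted, since 16350 cattle genes and 15391 pig genes carried a symbol. In cattle 39 members and in pig 30 had at least 1 UMI (a tag that counts 1 captured RNA molecule) in a named cell type, and 33 and 26 had the 10 UMIs that a test required.

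Testes were taken by castration from 3 Holstein cattle at an age of 4.5 months and from 3 pigs of mixed breed at 3 months. No animal was treated or genetically altered. Species, age, breed and the genome annotation used for counting differ together and cannot be told apart, also where levels of a gene are given for both species. The tissue was digested with trypsin and collagenase, all live testicular cells were loaded without a sort, and each animal gave 1 droplet library. The sample titles number the testes 1, 2 and 2 in either species, while the methods give different animals, which is followed here; if the later pair shared an animal, the p-values would be too small. After cells were called, 17482 cattle and 9206 pig cells were kept, and they fell into 24 and 27 clusters that were named from marker genes, with every collagen left out of both the clustering and the naming.

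Libraries differed in depth, with a median of 789 to 4462 UMIs per cell in cattle and 889 to 5878 in pig, cattle 1 and pig 1 being the shallow ones. Cell barcodes shared between any pair of libraries made up at most 1.16% of the smaller library. Stromal, peritubular myoid and pericyte clusters were pooled into one class, called stromal and myoid-like, because clusters in cattle followed the libraries: the clusters led by ACTA2 and TAGLN took 100%, 99.3% and 98.5% of their cells from 1 library each. That class held 7979 cattle cells and 712 pig cells, Sertoli-like cells numbered 4201 and 3577, Leydig-like 1912 and 1102, endothelial-like 134 and 690, germ-like 517 and 1561, macrophage-like 552 and 382, lymphocyte-like 2015 and 154, and plasmacytoid dendritic-like 172 and 490. In pig 538 cells stayed unnamed. Of the fixed markers found in the gene table, the labelled type had the highest level for 8 of 8 in peritubular myoid-like and 3 of 8 in stromal-like cattle cells, 7 of 10 and 6 of 10 in Sertoli-like cattle and pig cells, and 11 of 11 and 9 of 10 in germ-like cells. Pig 1 had 2 endothelial-like cells and does not enter that class.

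Collagens are proteins of the extracellular matrix built from 3 alpha chains wound into a triple helix, each chain encoded by its own gene. Fibrillar types such as I and III form the banded fibres of the interstitium, type IV forms the network of basement membranes, type VI forms beaded filaments, and types XV and XVIII are multiplexins, basement-membrane-zone collagens. In the testis the seminiferous tubule is bounded by a basement membrane that Sertoli cells and peritubular myoid cells lay down from either side, and interstitial fibroblasts, Leydig cells and vessels lie outside it.

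Promoters of COL1A1, COL1A2 and COL9A2, which are among the genes on which most results turn, are shown for the pig. Its gene models were taken from RefSeq on the same assembly as the pig files (Sscrofa11.1). There 39 of the 41 symbols had a position on a chromosome. COL1A1 and COL1A2 encode the 2 chains of type I collagen, and COL9A2 encodes a chain of the fibril-associated type IX. Each window holds the 250 bases before the annotated start, on the strand of the gene, with CCAAT or its reverse ATTGG in capitals. No other annotated gene lies in these windows.
COL1A1, chr12:26397181-26397430, minus strand: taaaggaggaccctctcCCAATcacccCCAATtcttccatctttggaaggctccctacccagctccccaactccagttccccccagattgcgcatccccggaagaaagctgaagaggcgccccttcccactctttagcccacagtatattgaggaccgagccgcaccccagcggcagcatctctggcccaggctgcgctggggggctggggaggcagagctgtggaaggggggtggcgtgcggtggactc
COL1A2, chr9:74174234-74174483, plus strand: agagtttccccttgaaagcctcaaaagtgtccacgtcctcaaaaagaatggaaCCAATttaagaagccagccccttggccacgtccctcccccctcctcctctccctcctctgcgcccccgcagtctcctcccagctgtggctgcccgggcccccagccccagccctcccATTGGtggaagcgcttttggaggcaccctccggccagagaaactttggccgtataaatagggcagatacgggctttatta
COL9A2, chr6:96081548-96081797, minus strand: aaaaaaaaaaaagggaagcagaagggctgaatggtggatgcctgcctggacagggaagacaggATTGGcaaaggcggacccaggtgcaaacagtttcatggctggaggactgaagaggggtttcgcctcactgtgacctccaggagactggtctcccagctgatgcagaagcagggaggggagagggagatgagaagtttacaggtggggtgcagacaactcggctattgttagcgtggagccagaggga
COL1A1 held the letters CCAAT at 233 and 223 bases before the start, COL1A2 held CCAAT at 197 and ATTGG at 80 bases before it, and COL9A2 held ATTGG at 187. On either strand, CCAAT occurred in 31.9% of the 19556 windows of this length before protein-coding genes. TATAAA on either strand stood 29 bases before the COL1A2 start and in neither of the other windows, against 9.77% of all windows. GGGCGG on either strand was in none of the 3 windows, against 45.9% of all. The window of COL3A1 was also examined and is not printed, and it held none of these motifs on either strand.

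Stromal and myoid-like cells had the highest share of collagen RNA among the cell classes of both species. Collagens made up 0.624%, 0.697% and 0.671% of all UMIs of this class in cattle 1, 2 and 3 and 0.63%, 1.05% and 1.88% in pig 1, 2 and 3. Every library of the class was above every library of every other class, whose shares ran from 0.0272% in lymphocyte-like to 0.309% in Leydig-like cells in cattle and from 0.0130% in germ-like to 0.340% in Leydig-like cells in pig. Within the class the pigs lay further apart than the cattle.

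**Figure D1:**
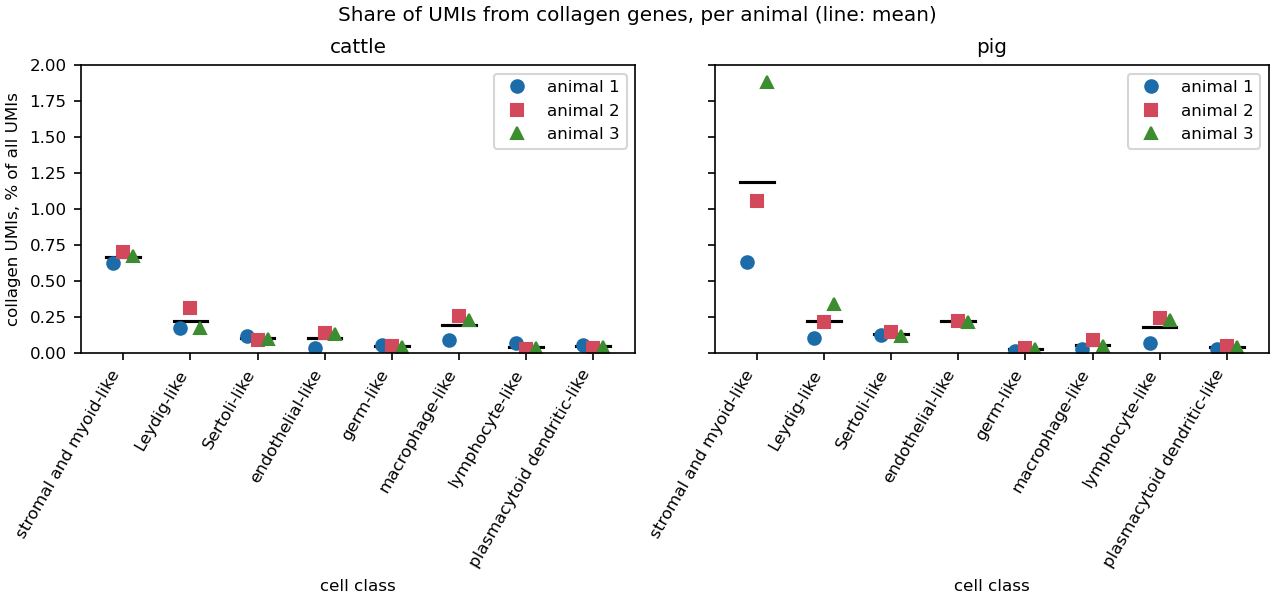
Share of all UMIs that came from collagen genes (y axis, percent) in each cell class (x axis) of cattle (left) and pig (right); points are animals with at least 20 cells in the class and lines are means. Stromal and myoid-like cells lie at 0.624% to 0.697% in cattle and 0.630% to 1.88% in pig, above all other classes.

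To test each class, UMIs were summed per animal and class, scaled to CPM (UMIs of a gene per 1000000 UMIs of that sum), and compared with the mean of the other named types. The sums held from 16975 UMIs, in the 24 endothelial-like cells of cattle 1, to 13365953, in the stromal and myoid-like cells of cattle 3. Against those types, 27 of 33 tested cattle collagens were higher in stromal and myoid-like cells (edgeR adjusted p under 0.05) and 0 were lower, where 19.6% of all 14202 genes tested were called, 15.7% as higher and 3.94% as lower. At an unadjusted p under 0.05, 0 collagens were lower in either species, and none was called lower in any alternative analysis run, DESeq2 included. In pig 21 of 26 were higher and 0 lower, against 13.7% called, 12.1% higher and 1.67% lower among 15172 genes. The median log2 fold change of the tested collagens was 3.22 in cattle and 3.52 in pig, and of all genes 0.25 and 0.12. By role, the calls covered 8 of 10 fibrillar and all 6 basement membrane network collagens in cattle, and 7 of 7 and 3 of 3 in pig, and 3 of 6 and 3 of 5 fibril-associated collagens. The members that missed the threshold in cattle were COL17A1, COL2A1, COL9A1, COL22A1, COL11A2 and COL12A1, each with at most 11 UMIs in the class, and in pig COL9A2, COL8A1, COL22A1, COL17A1 and COL28A1. Calls are against the mean of the other types, and some called genes had a higher mean in another class. In cattle these were COL7A1, COL11A1 and COL13A1 (germ-like), COL4A1, COL4A2 and COL6A2 (Leydig-like) and COL5A1, COL5A2 and COL5A3 (endothelial-like). COL18A1 (Sertoli-like) and COL9A3 (plasmacytoid dendritic-like) were others, and in pig COL13A1 and COL15A1 (endothelial-like) and COL14A1 (Leydig-like). Clusters are drawn from the same cells, so genes that vary together with a collagen helped to place a cell in its class.

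**Figure D2:**
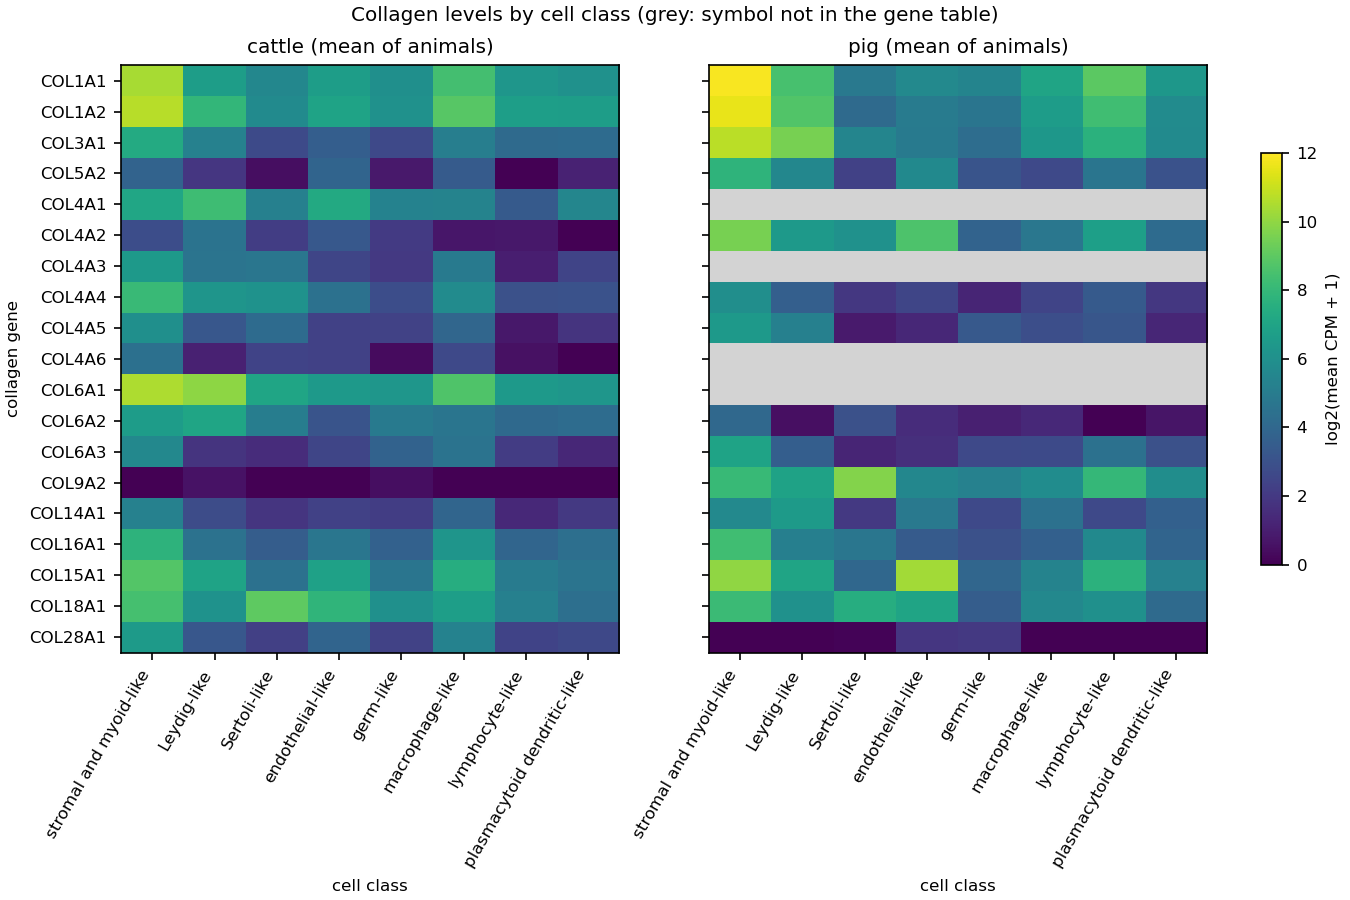
Level of the 19 collagens with at least 500 UMIs in either species, as log2 of the mean CPM over animals plus 1 (colour), by gene (rows, grouped by role) and cell class (columns). Grey rows are symbols absent from the pig table; COL1A1 and COL1A2 are brightest in stromal and myoid-like cells of both species and COL9A2 in Sertoli-like cells of pig.

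Among fibrillar collagens, COL1A1, which encodes the alpha 1 chain of type I, stood at 1455, 1425 and 1232 CPM in stromal and myoid-like cells of cattle 1, 2 and 3 and at 69.8, 32.4 and 34.3 CPM in their Sertoli-like cells. In pig 1, 2 and 3 the levels were 2091, 3018 and 6124 and 16.6, 29.5 and 36.2 CPM. No library of any other class reached the lowest stromal and myoid-like value in either species. The log2 fold change over the other types was 4.06 ± 0.26 (SE), edgeR adjusted p = 9.9e-13 in cattle and 5.03 ± 0.34 (SE), edgeR adjusted p = 1.8e-12 in pig.
COL1A2, the partner chain, was at 1628, 1672 and 1805 CPM in the class in cattle and 1519.8, 1955 and 5889 CPM in pig, with 179, 437 and 122 and 70.8, 247 and 955 CPM in Leydig-like cells. Pig 3 was the highest pig for both chains in both classes. COL3A1, whose type III fibres accompany type I, was at 229.6, 126 and 119 CPM in cattle and 837, 1484 and 2918 CPM in pig stromal and myoid-like cells. Its Leydig-like level was 50.7, 37.4 and 24.5 CPM in cattle and 356, 925 and 939 CPM in pig, so that pig Leydig-like and stromal and myoid-like values overlapped and cattle ones did not. COL5A2, a minor chain that joins type I fibrils, was at 10.0, 14.0 and 16.0 CPM in the class in cattle and 112, 157 and 409.6 CPM in pig. The remaining fibrillar members with a call in this class were COL5A1, COL5A3 and COL11A1 in both species and COL27A1 in cattle, with 5 to 260 UMIs in the class. In cattle the mean of COL5A1, COL5A2 and COL5A3 was highest in endothelial-like cells and that of COL11A1 in germ-like cells.

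Type VI chains form the beaded filaments around cells. COL6A1, present by symbol in cattle alone, was at 1247, 1588 and 1589 CPM in stromal and myoid-like and 662, 1376 and 903 CPM in Leydig-like cells, and every other class stayed at or under 598 CPM. COL6A2 ran with it in cattle Leydig-like cells at 155, 112 and 125 CPM against 150.4, 70.1 and 73.1 CPM in stromal and myoid-like cells, and these ranges overlapped. COL6A3 was different, with 45.1, 44.2 and 53.3 CPM in the stromal and myoid-like class of cattle and 1.91, 2.08 and 3.43 CPM in Leydig-like cells. In pig COL6A3 was at 55.8, 186 and 129.7 CPM in the class and COL6A2 at 27.9, 13.0 and 5.60 CPM, with 27 UMIs in all.

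Of the fibril-associated collagens, which bind the surface of fibrils, COL16A1 was at 189.5, 247 and 208 CPM in cattle and 153, 410.4 and 406 CPM in pig stromal and myoid-like cells. COL14A1 was at 14.0, 59.3 and 38.3 and 0, 43.7 and 105 CPM there, the 0 in pig 1 coming from a sum of 71721 UMIs. In pig the Leydig-like level of COL14A1 was 92.7, 74.9 and 108 CPM. COL28A1, a collagen outside the large families, was a stromal and myoid-like gene in cattle at 50.1, 100.4 and 129.6 CPM (log2 fold change 3.38 ± 0.27 (SE), edgeR adjusted p = 3.4e-11). In pig it had 0 UMIs in that class, which 3 counts would place at up to 1.15 CPM over the 3 animals, and 13 UMIs in endothelial-like and 41 in germ-like cells.

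The multiplexins COL15A1 and COL18A1, the latter the source of endostatin, parted the classes. COL15A1 was at 249, 592 and 503 CPM in cattle and 432, 1669.5 and 1009 CPM in pig stromal and myoid-like cells, and at 1425 and 1187 CPM in endothelial-like cells of pig 2 and 3. COL18A1 was called higher both in stromal and myoid-like and in Sertoli-like cells, with Sertoli-like levels of 656, 409 and 506 CPM in cattle and 148, 213 and 169 CPM in pig against 423, 324 and 306 and 237, 234 and 395 CPM in stromal and myoid-like cells. The ranges of the 2 classes overlapped in cattle and did not in pig, and the direct test between them gave a log2 fold change of -0.73 ± 0.34 (SE), edgeR adjusted p = 0.11 in cattle and 0.44 ± 0.37 (SE), edgeR adjusted p = 0.55 in pig, neither past the threshold. With the animal as a block, the cattle value was -0.74 ± 0.19 (SE), edgeR adjusted p = 0.00039, lower in stromal and myoid-like than in Sertoli-like cells in 3 of 3 animals, and the pig one did not pass (edgeR adjusted p = 0.25).

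**Figure D3:**
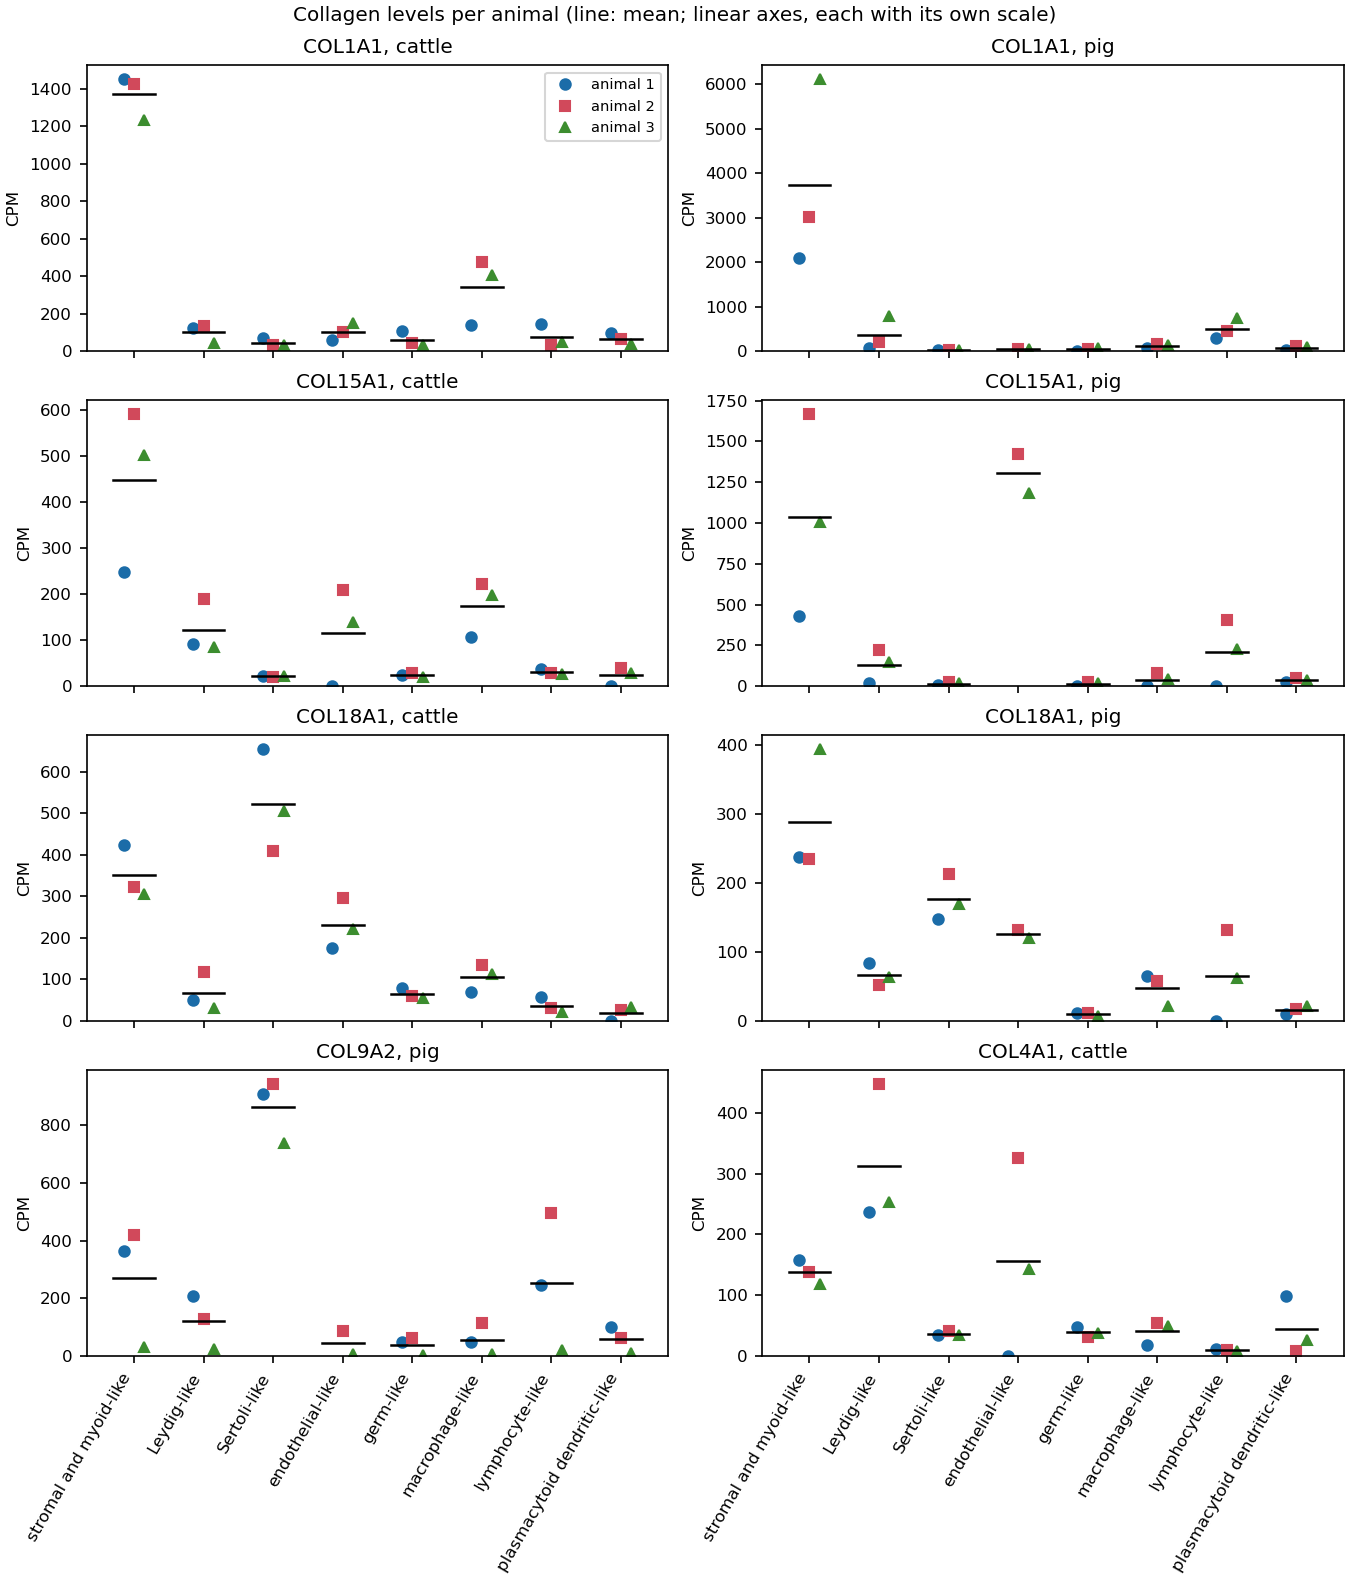
Levels in CPM (y axes, linear, a scale for each panel) of COL1A1, COL15A1 and COL18A1 in both species, COL9A2 in pig and COL4A1 in cattle by cell class (x axis); points are animals with at least 20 cells in the class, lines are means. COL1A1 is high in stromal and myoid-like cells of all 6 animals, COL15A1 also in pig endothelial-like cells, and COL9A2 in Sertoli-like cells of all 3 pigs.

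Sertoli-like cells had collagens called in both directions. In cattle 6 of 33 were higher than in the other types (COL18A1, COL4A3, COL4A4, COL4A5, COL4A6, COL7A1) and 7 were lower (COL1A1, COL1A2, COL3A1, COL6A3, COL15A1, COL16A1, COL28A1), where 29.0% of all genes were called, 20.8% as higher and 8.16% as lower. Without the TMM factor (edgeR's correction for a few dominant genes) the split was 4 higher and 8 lower. In pig 3 of 26 were higher (COL9A2, COL18A1, COL6A2) and 8 lower (COL1A1, COL1A2, COL3A1, COL5A2, COL4A5, COL6A3, COL14A1, COL15A1), against 24.0% called, 16.5% higher and 7.53% lower. In both species the share of collagens called higher was no larger than that of all genes, and only the lower share was larger. The higher cattle calls were basement membrane collagens and COL7A1, the anchoring fibril collagen, which had 27 UMIs in the class. Germ-like cells had the highest mean level of COL7A1 in cattle, with 42 of its 116 UMIs (7.88 CPM). Its Sertoli-like call was kept in 2 of 13 alternative analyses and that of COL4A6 in 3 of 13. The lower calls rested on the class mean of the other types, which includes the stromal and myoid-like cells. They are also the part most open to the cell call: in pig, with every barcode of at least 500 UMIs kept as a cell, 2 collagens were higher and 0 lower (4 and 1 at an unadjusted p under 0.05).

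COL9A2 had its highest level in Sertoli-like cells in pig. Its levels were 907, 944 and 737 CPM in Sertoli-like cells of pig 1, 2 and 3, from 11003 UMIs, and 363, 421 and 29.9 CPM in stromal and myoid-like and 48.1, 62.1 and 4.68 CPM in germ-like cells. Each pig had its highest value among fitted classes in Sertoli-like cells (log2 fold change over the other types 3.58 ± 0.56 (SE), edgeR adjusted p = 1.3e-05). The direct test of stromal and myoid-like over Sertoli-like cells did not pass (log2 fold change -2.07 ± 0.96 (SE), edgeR adjusted p = 0.19). The values outside Sertoli-like cells were high in pigs 1 and 2, where these cells made up 36.8% and 57.9% of all cells kept, and low in pig 3, where they made up 9.35%, and the part of free RNA in them was not tested. In cattle COL9A2 had 4 UMIs in all named cells, none of them in Sertoli-like cells, whose 16236615 UMIs put the limit of 3 counts at 0.185 CPM. COL9A1 and COL9A3, the other chains of type IX, were found by symbol in cattle alone, with 19 and 74 UMIs in named cells.

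Leydig-like cells had 9 higher and 0 lower collagens of 33 in cattle, where 13.4% of all genes were called as higher and 4.84% as lower (18.3% in all), and 5 higher and 0 lower of 26 in pig, where these shares were 9.99%, 4.66% and 14.6%. At an unadjusted p under 0.05, 2 cattle and 0 pig collagens were lower. Without the TMM factor the cattle split was 7 higher and 2 lower. The cattle calls were the type VI pair COL6A1 and COL6A2, the type IV chains COL4A1, COL4A2, COL4A3 and COL4A4, and COL1A2, COL3A1 and COL15A1. COL1A2, COL3A1, COL15A1 and COL4A3 each lost the threshold in at least 1 alternative, COL3A1 only after free RNA was subtracted. The bound of that subtraction was set from COL1A1, COL1A2 and COL3A1, so it cannot judge these genes. A cluster of 133 cattle Leydig-like cells, 100% from 1 library, held ACTA2 at 1863, COL1A2 at 581 and COL3A1 at 149 CPM. In the other cattle Leydig-like clusters COL1A2 ran from 109 to 445 and COL3A1 from 26.4 to 36.3 CPM. COL4A1, which forms the common basement membrane network with COL4A2, was at 237, 448 and 254 CPM in Leydig-like and 158, 139 and 118 CPM in stromal and myoid-like cells, ranges that did not overlap. COL4A2 followed the same order at 31.6, 18.7 and 18.1 and 5.01, 7.33 and 5.99 CPM. The pig calls were COL1A1, COL1A2, COL3A1, COL14A1 and COL4A5. For the type I genes these levels were uneven: COL1A1 was at 81.7, 217 and 790.4 CPM in Leydig-like and 286, 456 and 749 CPM in lymphocyte-like cells of pig 1, 2 and 3, and COL1A2 at 70.8, 247 and 955 and 40.9, 304 and 602 CPM. COL1A1 was thus under the lymphocyte-like level in pigs 1 and 2, and COL1A2 in pig 2. A cluster of 78 Leydig-like cells, 98.7% of them from 1 library, held COL1A1 at 906 and COL1A2 at 991 CPM, and the other 1024 cells held them at 115 and 146 CPM. Pig 1 gave 930 of the 1102 Leydig-like pig cells, and without pig 3 the count was 4.

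Endothelial-like cells of pig 2 and 3 had 7 higher and 5 lower collagens of 26, where 12.8% of all genes were called as higher and 4.30% as lower (17.1% in all). COL13A1, a transmembrane collagen, was at 57.8 and 81.8 CPM in them and at or under 7.51 CPM in every other tested class (log2 fold change 7.16 ± 0.41 (SE), edgeR adjusted p = 1.1e-13). Within the pooled stromal and myoid-like class, 19 and 10 pericyte-like cells of pig 2 and 3 held it at 64.8 and 29.3 CPM, from 8 UMIs in all. COL15A1, COL18A1, COL4A2, COL5A2, COL12A1 and COL28A1 were the other higher ones, and COL1A1, COL3A1, COL4A5, COL6A3 and COL16A1 the lower ones. With 500 UMIs as the minimum 4 were higher and 0 lower (7 and 0 at an unadjusted p under 0.05), and without pig 2 the counts were 4 and 1, from 1 endothelial-like sum that is assumed to vary like the other classes. In cattle, where the class held 24, 64 and 46 cells, 4 collagens were higher and 1 lower against 4.51% and 1.54% of all genes (6.05% in all). Of these, COL5A3, COL5A2 and COL12A1 rested on 5, 7 and 2 UMIs in the class, and COL4A1 on 76 UMIs at 0, 326 and 143 CPM, with cattle 1 at 0. COL6A1 was the lower one and no longer passed without the TMM factor, where 7 were higher and 0 lower. Without cattle 2 edgeR called 0 collagens in this class (4 at an unadjusted p under 0.05), and without cattle 3 it called 1.

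Type IV collagen has 6 chains, all listed in cattle. COL4A1 and COL4A2 form the network of most basement membranes, and COL4A3, COL4A4 and COL4A5 form the network of specialised ones such as that of the kidney glomerulus, with COL4A6 pairing with COL4A5. COL4A4 was at 226, 309 and 311 CPM in stromal and myoid-like cells of cattle 1, 2 and 3, 82.3, 92.6 and 53.0 CPM in Leydig-like, 74.4, 64.6 and 67.5 CPM in Sertoli-like and 10.2, 3.84 and 4.29 CPM in germ-like cells. COL4A3 ran at 66.2, 111 and 80.1 CPM in stromal and myoid-like and 25.8, 25.6 and 23.4 CPM in Sertoli-like cells. Neither gene had a Sertoli-like value within the stromal and myoid-like range. COL4A5 was at 44.1, 79.6 and 62.6 CPM in stromal and myoid-like and 6.07, 27.4 and 18.3 CPM in Sertoli-like cells. COL4A6 was at 13.0, 25.5 and 23.0 and 6.07, 3.88 and 2.98 CPM.
Over the 8 cell types, which share libraries and depth, the log2 mean levels of COL4A3 went most closely with those of COL4A5 (Pearson r = 0.96) and COL4A4 (r = 0.96), and COL4A1 with COL4A2 (r = 0.81), while between COL4A1 or COL4A2 and the other 4 chains r ran from 0.33 to 0.58. In the pig annotation COL4A3 and COL4A4 lie head to head on chromosome 15 with 663 bases in common and COL4A1 and COL4A2 on chromosome 11 with 525, and 207898 bases lie between COL4A5 and COL4A6 on chromosome X. These shared bases lie at the starts of the genes. The correlations are from cattle, whose gene positions were not examined, and in pig COL4A1 and COL4A3 were not found by symbol. Reads from shared bases could go to either gene of a pair where strand was not used. That counting step is not given in the sources used here, and its part in the correlations was not tested.

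Peritubular myoid-like cells, the contractile cells of the tubule wall, were compared with stromal-like cells in cattle alone, since in pig no cluster met the rule for them. Of 33 collagens, 2 were higher and 0 lower in peritubular myoid-like cells, against 0.592% higher, 0.732% lower and 1.32% in all of 14199 genes, and at an unadjusted p under 0.05 these counts were 6 and 2. They were COL4A4 at 235, 625 and 442 CPM in cattle 1, 2 and 3 against 68.8, 95.6 and 77.4 CPM in stromal-like cells (log2 fold change 2.39 ± 0.39 (SE), edgeR adjusted p = 0.00035) and COL4A3 at 69.2, 117 and 117 against 17.2, 23.9 and 13.7 CPM (log2 fold change 2.53 ± 0.50 (SE), edgeR adjusted p = 0.0031). The 2 types did not overlap for either gene, but some values rest on few UMIs. Cattle 2 had 32 COL4A4 and 6 COL4A3 UMIs in peritubular myoid-like cells, and cattle 1 had 4 and 1 in stromal-like cells. A cluster with markers of both types, holding 2431 cells of cattle 2, stood on neither side of the comparison. In cattle 2 it held COL4A4 at 398 and COL4A3 at 148 CPM. For COL1A1 the levels were 1489, 1484 and 1277 and 911, 939.6 and 1153 CPM and for COL15A1 255, 234 and 525 and 155, 471 and 467 CPM, and neither passed the test. Cattle 2 gave 24 peritubular myoid-like cells and cattle 1 gave 44 stromal-like cells. With the animal as a block 6 collagens were higher and 1 lower, and without cattle 2, without cattle 3 or after free RNA was subtracted 0 were called by edgeR, with 5, 3 and 5 at an unadjusted p under 0.05. DESeq2 on all 3 animals called 2.

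**Figure D4:**
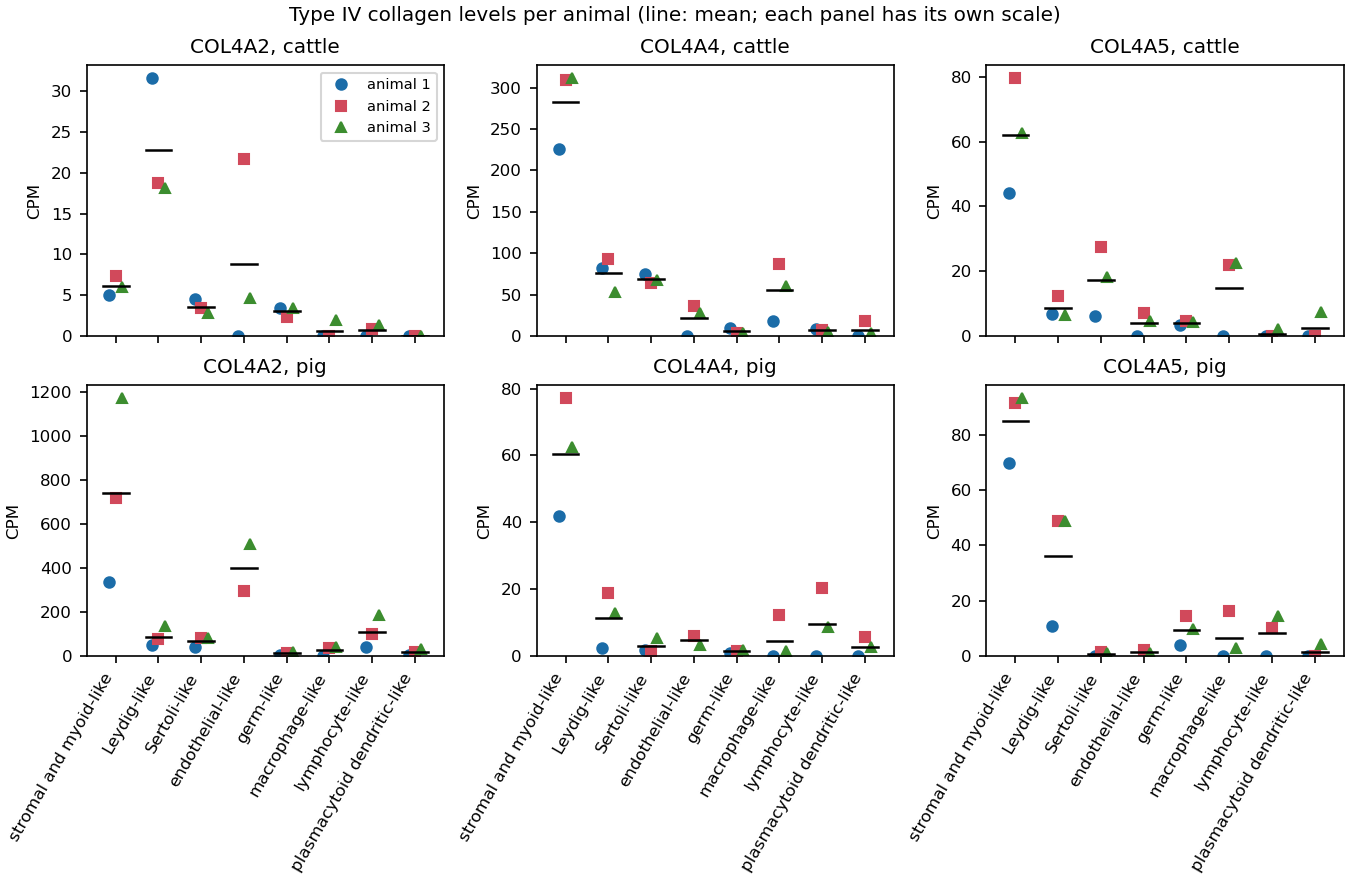
Levels in CPM (y axes, a scale for each panel) of COL4A2, COL4A4 and COL4A5 in cattle (upper row) and pig (lower row) by cell class (x axis); points are animals with at least 20 cells in the class, lines are means. COL4A2 is highest in Leydig-like cells in cattle and in stromal and myoid-like cells in pig, and Sertoli-like COL4A5 is above 6 CPM in every cattle animal and under 2 CPM in every pig. Each species was counted on its own genome annotation, which cannot be told apart from species.

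The species were compared through the stromal and myoid-like over Sertoli-like difference, over the 28 collagens that the joint table tested. In cattle 24 of 33 collagens were higher and 0 lower in stromal and myoid-like than in Sertoli-like cells, where 14.1% of all genes were called as higher and 15% as lower (29.1% in all). In pig 16 of 26 were higher and 0 lower, against 8.38%, 3.05% and 11.4%, and at an unadjusted p under 0.05 each species had 1 lower collagen. The cattle count of higher collagens was 14 without cattle 2 and 12 without cattle 3, and in pig 7 were higher once barcodes with 500 UMIs or more were all kept. The difference between species passed for 5 collagens, 1 larger in cattle and 4 larger in pig, against 3.34% and 4.85% of 12753 genes (8.19% in all). The 4 were the type IV chains COL4A2, COL4A4 and COL4A5 and the anchoring fibril collagen COL7A1. COL4A5 was 1.50 ± 0.42 (SE), edgeR adjusted p = 0.0072 in cattle and 5.84 ± 0.63 (SE), edgeR adjusted p = 5.1e-08 in pig as a log2 fold change, with 0, 1.54 and 0.905 CPM in pig Sertoli-like and 69.7, 91.5 and 93.3 CPM in pig stromal and myoid-like cells. The cattle minus pig difference was -4.32 ± 0.76 (SE, edgeR adjusted p = 7.3e-05). COL4A4, at 41.8, 77.2 and 62.5 CPM in stromal and myoid-like and 1.85, 1.44 and 5.43 CPM in Sertoli-like pig cells, differed by -2.63 ± 0.65 (SE, edgeR adjusted p = 0.0053). COL4A2 was at 335, 719 and 1175 and 40.6, 80.4 and 80.5 CPM in these pig classes and at 5.01, 7.33 and 5.99 and 4.55, 3.40 and 2.77 CPM in cattle, a difference of -2.43 ± 0.70 (SE, edgeR adjusted p = 0.019).
COL7A1 differed by -3.95 ± 0.91 (SE, edgeR adjusted p = 0.0029), from 43 and 27 UMIs in the cattle and 35 and 7 in the pig classes. COL17A1, a transmembrane collagen, went the other way by 4.12 ± 1.34 (SE, edgeR adjusted p = 0.046), with 11 and 0 UMIs in the cattle and 8 and 41 in the pig classes, and against a class at 0 the fitted size depends on the prior count and is no bound. These calls depend on which barcodes count as cells. With every barcode of at least 500 UMIs, COL4A2, COL4A4, COL4A5 and COL7A1 kept a negative difference, of -1.99, -2.44, -2.61 and -2.33, and none passed, while COL17A1 did. With the animal as a block the counts were 1 and 8, and without pig 2 they were 0 and 1. The type I genes, COL1A1 with -1.93 ± 0.76 (SE, edgeR adjusted p = 0.12) and COL1A2 with -2.47 ± 0.90 (SE, edgeR adjusted p = 0.083), did not pass.

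**Figure D5:**
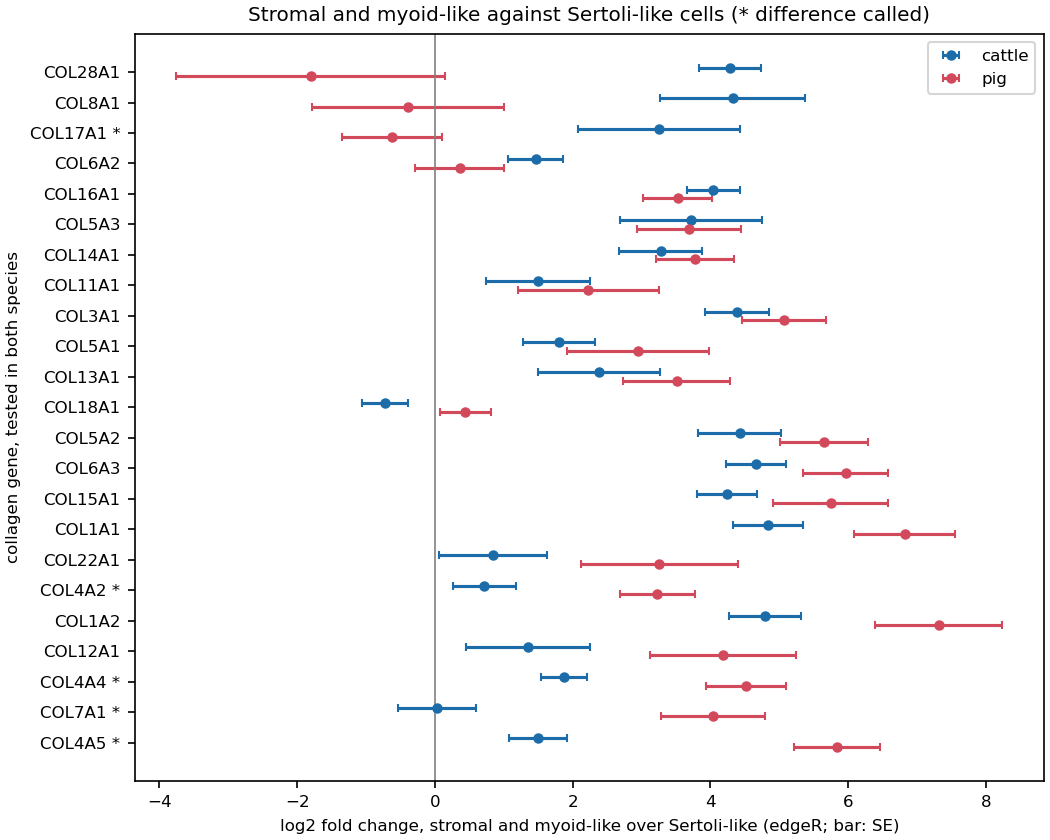
Log2 fold change of stromal and myoid-like over Sertoli-like cells (x axis, edgeR, bars are SE) for the 23 collagens tested within both species (y axis), cattle in blue and pig in red, sorted by the cattle minus pig difference. Asterisks mark the 5 genes whose difference passed. The fold change of COL17A1 is larger in cattle, and the fold changes of COL4A2, COL4A4, COL4A5 and COL7A1 are larger in pig.

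Germ-like cells had little collagen RNA, 0.0410% to 0.0563% of UMIs in cattle and 0.0130% to 0.0304% in pig, yet held nearly all UMIs of a few members. These were not tested and are counts with exact 95% Poisson intervals, which cover counting error alone. COL22A1, a fibril-associated collagen, had 27 UMIs in cattle germ-like cells and 1 in all other named cells, or 5.07 CPM (3.34 to 7.37) against 0.0210 (0.000532 to 0.117). In pig it had 248 and 15 UMIs, or 14.6 CPM (12.8 to 16.5) against 0.604 (0.338 to 0.996). All 6 animals had COL22A1 in germ-like cells, at 3.41, 6.91 and 4.55 CPM in cattle and 5.89, 16.6 and 15.5 CPM in pig. The value of cattle 1 is 1 UMI in a sum of 293219 UMIs. COL2A1, the chain of type II collagen known from cartilage, had 55 of its 58 cattle UMIs in germ-like cells at 0, 15.4 and 9.38 CPM. In pig it had 1 UMI, in a stromal and myoid-like cell. COL12A1, COL9A1 and COL11A2 had 17 of 22, 15 of 19 and 8 of 13 cattle UMIs there. Of members with a UMI, 13 of 39 in cattle and 5 of 30 in pig had their highest class mean in germ-like cells. Stromal and myoid-like cells had it for 16 and 19.

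Immune classes were not tested. Macrophage-like cells of cattle 2 and 3 held COL1A1 at 478 and 409 CPM, with 1 cluster of 148 cells that had ACTA2, a contractile-cell gene, among its leading genes. Without it the levels in cattle 2 and 3 were 96.1 and 165 CPM, and within it they were 1115 and 1034 CPM. Lymphocyte-like cells, which are not known for making collagen, had COL1A1 at 147, 35.2 and 48.7 CPM in cattle and 286, 456 and 749 CPM in pig, the latter from 21, 22 and 111 cells. In cattle barcodes with at most 50 UMIs, which hold free RNA, COL1A1 was at 158, 261 and 378 CPM and COL6A1 at 288, 428 and 637 CPM. COL1A1 in Sertoli-like cells was under the lymphocyte-like level in every animal of both species. Germ-like cells of the pigs pooled held it at 54.2 CPM, also under the lymphocyte-like values. Free RNA was measured in cattle alone, and its part in the levels of these classes was not tested.

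Genes that make, process, bind or degrade collagen were counted from lists. Among all genes tested, 15.7% in cattle and 12.1% in pig were higher in stromal and myoid-like cells, and 3.94% and 1.67% lower. Of the lists, 13 of 21 biosynthesis genes were higher and 0 lower in cattle, and 14 of 21 and 0 in pig. SERPINH1, the collagen chaperone HSP47, had log2 fold changes of 2.26 ± 0.21 (adjusted p = 9.1e-10) and 2.30 ± 0.25 (adjusted p = 3.2e-08) in cattle and pig. FKBP10, a prolyl isomerase of procollagen folding, had 2.74 ± 0.33 (adjusted p = 1.3e-07) and 2.81 ± 0.24 (adjusted p = 2e-10). Processing and cross-linking genes were higher for 7 of 10 in cattle and 9 of 13 in pig with 0 lower, among them PCOLCE, the procollagen C-proteinase enhancer, at 3.02 ± 0.22 (adjusted p = 7.1e-12) and 3.25 ± 0.29 (adjusted p = 3.5e-10), and the cross-linking enzyme gene LOX at 3.58 ± 0.45 (adjusted p = 5e-07) and 3.12 ± 0.41 (adjusted p = 7.3e-07). Receptors were higher for 2 of 6 and 5 of 8, with DDR2, a receptor for fibrillar collagen, at 2.69 ± 0.40 (adjusted p = 6.9e-06) and 2.09 ± 0.59 (adjusted p = 0.014).
Degradation genes were higher for 4 of 7 and lower for 1, TIMP2, in cattle and higher for 5 of 7 in pig. MMP2, a gelatinase, stood at 3.35 ± 0.26 (adjusted p = 2.9e-11) and 3.05 ± 0.26 (adjusted p = 1.6e-10). Basement membrane partners were higher for 7 of 13 entries in cattle, LAMC1 being listed under 2 identifiers, and 10 of 13 in pig, with 0 lower. LAMB1, a laminin chain, had 3.05 ± 0.26 (adjusted p = 2.4e-10) and 3.50 ± 0.29 (adjusted p = 1.1e-10). The median log2 fold change of these lists ran from 0.58 to 2.59 in cattle and from 1.35 to 3.08 in pig, against 0.25 and 0.12 for all genes.

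The same lists were counted in Sertoli-like cells, where 20.8% of all genes were higher and 8.16% lower in cattle and 16.5% and 7.53% in pig. In cattle 7 of 21 biosynthesis genes were higher and 2 lower, led by the prolyl 3-hydroxylase gene P3H2 at 4.80 ± 0.28 (adjusted p = 3.1e-14) and PLOD2, a lysyl hydroxylase, at 5.23 ± 0.33 (adjusted p = 5.2e-13). In pig 10 were higher and 1, CREB3L1, lower, with P3H3 at 4.06 ± 0.46 (adjusted p = 2.2e-07). Processing genes were higher for 1 of 10 and lower for 1 in cattle, and higher for 2 of 13 and lower for 4 in pig. LOXL1, a cross-linking enzyme gene, was lower in both, at -2.12 ± 0.53 (adjusted p = 0.0027) and -3.30 ± 0.77 (adjusted p = 0.0015). Receptors were higher for 1 gene in each species, DDR1, which binds fibrillar and type IV collagen, at 2.14 ± 0.36 (adjusted p = 2.2e-05) and 3.07 ± 0.34 (adjusted p = 5.1e-08), and lower for 1 of 6 and 2 of 8.
Degradation genes were higher for 2 and lower for 2 of 7 in cattle and higher for 2 and lower for 0 in pig, with the protease inhibitor TIMP3 at 3.06 ± 0.30 (adjusted p = 2.8e-09) and 1.88 ± 0.24 (adjusted p = 4.6e-07). Basement membrane partners were higher for 4 and lower for 2 of 13 entries in cattle and higher for 2 and lower for 2 in pig. LAMA1, the laminin alpha 1 chain, was higher at 2.09 ± 0.27 (adjusted p = 3.4e-07) and 2.57 ± 0.33 (adjusted p = 5.2e-07), and NID2, which links laminin to type IV collagen, was lower at -2.56 ± 0.47 (adjusted p = 8.1e-05) and -2.52 ± 0.56 (adjusted p = 0.001).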

How the data were processed

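Single-cell RNA of all live testicular cells was measured in 3 cattle and 3 pigs. The authors demultiplexed and aligned the reads with Cell Ranger 2.1.0 to ARS-UCD1.2 (cattle) or Sscrofa11.1 (pig), and deposited raw UMI counts per gene and barcode with no cell type labels; the cattle files hold 737280 barcodes per library and the pig files 6220 to 22920. Headers of the deposited pig files name software version 3.0.2, which the methods do not. The counting of strand is not given in the sources used here.

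Barcodes were called cells by the Cell Ranger 2 rule (the 99th percentile of the top 3000 barcodes divided by 10), with at least 200 genes, and the highest Scrublet doublet scores, 0.8% for every 1000 cells, were left out (41 to 613 cells per library). Cells of a species were clustered in scanpy 1.11.5 on 2000 variable genes, 30 principal components and 15 neighbours (Leiden, igraph 0.11.9, resolution 1), without collagen or collagen pathway genes. A cluster was named when at least 3 markers had a UMI in 5% of its cells and stood 2-fold above the median over clusters, after adding 10 CPM. The class for clusters with both stromal and myoid markers, and the rule leaving clusters that share leading genes with germ clusters unnamed, were set after the clusters were seen.

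Counts were summed per animal and class (at least 20 cells), genes with at least 10 UMIs were kept, and classes were compared with edgeR 4.0.16 (TMM, quasi-likelihood, two-sided, Benjamini-Hochberg over all genes, R 4.3.3), without an animal term. Sums of 1 animal come from 1 library and deviated together, with a median correlation of 0.31 in cattle and 0.33 in pig over 4417 and 4695 genes, against -0.20 and -0.14 between animals, so a fit with the animal as a block was an alternative. TMM moved log2 fold changes of the classes by -0.49 to 0.51. On simulated data the test recovered 64% of 4-fold and 16% of 2-fold changes for stromal and myoid-like cells in cattle (14202 genes), 58% and 8% in pig (15172) and 5% and 0% for the species difference (12753), and 23.8%, 10.8% and 28.6% of its calls were false. The simulated sums of 1 animal did not vary together, and the last of these shares rests on few calls. Intervals and floors cover counting error only.

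The members, the lists and the rule for named genes (values per animal for collagens with at least 500 UMIs in named cells of a species, others by counts, and up to 4 list genes with the smallest adjusted p) were chosen with earlier results of these data known. Coordinates are given for pig alone, since the cattle table at hand is of another assembly.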

Additional observations from a re-analysis of the deposited data

Results flagged for a closer look

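Between cattle and pig, the stromal and myoid-like over Sertoli-like log2 fold change differed for 5 collagens by the test of the species difference itself (edgeR, adjusted over 12753 genes). The cattle minus pig difference was -2.43 for COL4A2, -2.63 for COL4A4, -4.32 for COL4A5 and -3.95 for COL7A1, and 4.12 for COL17A1. Their adjusted p-values were 0.019, 0.0053, 7.3e-05, 0.0029 and 0.046. In the simulation for this comparison 28.6% of the calls were false.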

How the results depend on the processing

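Counts of collagens called against the other cell types stayed within 1.5 times the main count under every alternative run in stromal and myoid-like cells of cattle (27 called, from 18 to 27) and pig (21, from 15 to 22) and in Leydig-like cells of cattle (9, from 6 to 10). The other counts moved. With at least 50 cells per sum, 8 collagens were called in Sertoli-like and 1 in endothelial-like cells of cattle, in place of 13 and 5, and only cattle 2 then gave an endothelial-like sum. With free RNA subtracted, 7 were called in cattle Sertoli-like cells and 0 in peritubular myoid-like against stromal-like cells, where the main count was 2. The subtraction used the level of COL1A1, COL1A2 and COL3A1 in lymphocyte-like cells as its bound, which allowed 100%, 13.0% and 12.9% of UMIs as free RNA in cattle 1, 2 and 3. These genes are themselves members, so the subtraction cannot judge their own calls. At 100% it took the whole free RNA profile from every cattle 1 sum, so a call lost under it is no measure of free RNA. With a minimum of 500 UMIs per barcode, 8 were called in cattle endothelial-like, 2 in pig Sertoli-like (11 in the main analysis) and 4 in pig endothelial-like cells (12), and 2 for the species difference (5). With no doublets left out, 7 were called in pig endothelial-like cells and 9 for the species difference. DESeq2 called 3 in pig Leydig-like cells (5 by edgeR) and 2 for the species difference. At cluster resolution 2, 1 was called in peritubular myoid-like cells. The cause of these moves was not tested.

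With the animal as a replicate block, which pairs the sums of 1 library, 7 collagens were called in peritubular myoid-like against stromal-like cells and 9 for the species difference, and no other count moved by over 1.5 times. Leaving out each animal in turn gave 4 to 12 calls in cattle Sertoli-like cells, the 4 without cattle 2 and 8 without cattle 3. It gave 0 to 6 in cattle endothelial-like cells, 0 to 3 in peritubular myoid-like cells, 5 to 13 in pig endothelial-like cells, with 5 without pig 2 and a single endothelial-like sum left without pig 2 or pig 3, and 1 to 5 for the species difference, with 1 without pig 2 and 3 without cattle 2, cattle 3 or pig 3.

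The direct comparison of stromal and myoid-like with Sertoli-like cells within a species was put through the same alternatives after the data were seen. Its count of 24 in cattle ran from 12 to 23 with 1 animal left out, 14 without cattle 2 and 12 without cattle 3, and its count of 16 in pig moved to 7 at 500 UMIs per barcode and was 14 with any 1 pig left out. COL18A1 in this comparison passed in cattle with the animal as a block, and in pig its log2 fold change of 0.44 ran from -0.20 without pig 3 to 0.74 without pig 2.

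Single collagens that were called kept direction and threshold in 1176 cases, lost the threshold in 197 and reversed in 4. The reversed ones were COL12A1 in cattle endothelial-like cells with at least 50 cells per sum (log2 fold change -1.52) and, at 500 UMIs per barcode, COL1A2 (0.375) and COL3A1 (0.13) in pig Sertoli-like and COL6A3 (0.024) in pig endothelial-like cells. Called genes that passed in every alternative numbered 17 of 27 in stromal and myoid-like, 2 of 13 in Sertoli-like and 5 of 9 in Leydig-like cells of cattle, 13 of 21, 2 of 11 and 3 of 5 in pig, 3 of 12 in pig endothelial-like cells, and 0 of 5, 0 of 2 and 0 of 5 for cattle endothelial-like cells, peritubular myoid-like cells and the species difference. In pig, peritubular myoid-like cells could be compared with stromal-like cells only at 500 UMIs per barcode, where 0 of 27 collagens passed (0 higher and 10 lower at an unadjusted p under 0.05). Small sums limit the endothelial-like class of cattle and the stromal and myoid-like class of pig 1.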
